A study of Homo sapiens with 8 samples.

Results

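Transcripts of 10 immune checkpoint ligand genes were examined in tumours that H2122, a human lung cancer cell line, formed after transplantation into mice. The genes were taken by symbol from a list of surface or secreted proteins that tumour cells use to restrain leukocytes: CD274, PDCD1LG2, CD276, VTCN1, HHLA2, NECTIN2, PVR, LGALS9, CD47 and TNFRSF14. All 10 were found among the 59050 gene symbols of the count files, and 8 of them passed the filter on low counts that 16219 genes passed. The 2 groups were 4 tumours of parental H2122 cells, whose genotype is given as WT, and 4 tumours of H2122 cells with the genotype SMARCA4 KO, and all 8 had received vehicle. SMARCA4 is the gene of BRG1, a motor subunit of SWI/SNF nucleosome remodellers. The strain, age and sex of the mice, and whether the knockout cells were 1 clone or a pool, are not given in the sources used here.

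Checkpoint ligands act by binding receptors on immune cells. PD-L1, encoded by CD274, and PD-L2, encoded by PDCD1LG2, engage PD-1 on T cells. CD276, VTCN1 and HHLA2 encode further members of the B7 family, which belong to the same immunoglobulin superfamily. NECTIN2 and PVR encode adhesion molecules that are bound by the inhibitory receptor TIGIT and by the activating receptor CD226, and CD47 binds SIRPA on macrophages and so restrains phagocytosis. LGALS9 encodes galectin-9, a lectin that binds TIM-3, and TNFRSF14 encodes HVEM, which binds BTLA, CD160 and the cytokine LIGHT. CD274 is a well-known target of interferon gamma signalling through JAK kinases and IRF1.

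In knockout tumours HHLA2, LGALS9, CD47 and NECTIN2 transcripts fell, and none of the 10 genes was called higher. The fitted level in knockout tumours was 10.6% of the parental level for HHLA2, 38.8% for LGALS9, 38.9% for CD47 and 65.2% for NECTIN2. The LGALS9 call was lost when its reads were summed with those of near-identical gene copies (log2 fold change -0.50, edgeR adjusted p = 0.166). CD274 and CD276 were not called, and PVR and TNFRSF14 missed the threshold as well. By edgeR's quasi-likelihood test with Benjamini-Hochberg adjustment over all genes, 4 of the 8 tested ligands had an adjusted p under 0.05, all of them lower, where 27% of all 16219 genes passed and 14.1% passed as lower. In the same 4 every knockout tumour lay below every parental tumour, as in 15.3% of all genes tested. The median log2 fold change of the 8 was -0.70, against 0.0034 over all genes tested. PDCD1LG2 and VTCN1 had too few reads for that test and are described by their counts.

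Libraries held 19785922 to 23191698 gene counts. SMARCA4 read 220 ± 16.0 CPM in parental tumours against 27.2 ± 3.90 CPM with the knockout (SD, n = 4 each, where CPM is reads per 1000000 of the TMM-scaled library), with every library on the side of its label. The epithelial markers EPCAM, KRT7, KRT8, KRT18, KRT19, CDH1, CLDN4 and CLDN7 summed to 6469 to 7556 CPM in parental and 5034 to 6666 CPM in knockout tumours. Of these 8, 4 were called lower, where 14.1% of all genes tested were. The 20 leukocyte markers summed to 23.3, 125, 104 and 16.0 CPM in parental replicates 1 to 4, against sums of 24.4 to 48.7 CPM with the knockout, with a median of -0.51 for the log2 fold changes of the 13 that passed the filter. None of the 20 was at 0 in all 8 libraries. Parental replicates 2 and 3 thus stood apart in leukocyte markers, and each ligand's fold change is given with and without both where it differs. Of 10 fibroblast markers, which summed to 182 to 611 CPM in parental and 345 to 606 CPM in knockout libraries, LUM was called higher (log2 fold change 5.00). COL1A1, at a mean of 353 CPM in parental and 446 CPM in knockout libraries, made up most of these sums. DCN, PDGFRA, PDGFRB and THY1 averaged at most 0.305 CPM in either group. Of 10 endothelial markers, at 17.3 to 26.8 and 26.5 to 32.2 CPM, VWF was called lower (-2.37) and EGFL7 higher (1.03). Skeletal muscle markers reached 37.1 CPM in parental replicate 2, 17.2 CPM in knockout replicate 4 and 8.11 CPM in parental replicate 4, against at most 0.653 CPM elsewhere. The part of these markers in the ligand results was not tested, other than by leaving out each tumour in turn and parental replicates 2 and 3 together. In bulk tumours fewer cells of a type and less RNA per cell cannot be told apart. Whether reads of mouse cells were removed is not given, so their part in the marker and ligand counts is not known. Each sample title also carries a number of its own, higher for every knockout tumour than for any parental tumour, and its meaning is not given. The labels do not say which tumours were handled together.

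Promoter sequence is shown for the 3 ligands that the results turn on: CD274, because its known interferon inputs were measured too, and CD47 and HHLA2, which lie near each other on chromosome 3 and both fell. The runs are the 250 bases before the RefSeq start (GRCh38.p14), ended at the first base within them that lies in an exon of GENCODE 29, and are read 5′ to 3′ on the strand of the gene, and 9 of the 10 genes were matched in that table (all but PDCD1LG2). Capitals mark matches to 6 motifs searched on both strands with overlaps kept: the ISRE core, which is GAAA, any 2 bases and GAAA again, the GAS motif TTCNNNGAA, AP-1 TGANTCA, CRE TGACGTCA, the NF-kB site, which is GGG, any 2 bases and TTTCC, and the GC box GGGCGG.
CD274, plus strand, chr9:5450292-5450502: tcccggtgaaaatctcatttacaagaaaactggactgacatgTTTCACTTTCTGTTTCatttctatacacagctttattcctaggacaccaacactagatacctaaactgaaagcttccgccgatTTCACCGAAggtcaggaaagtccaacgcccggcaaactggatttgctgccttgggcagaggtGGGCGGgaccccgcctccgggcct
HHLA2, plus strand, chr3:108296298-108296489: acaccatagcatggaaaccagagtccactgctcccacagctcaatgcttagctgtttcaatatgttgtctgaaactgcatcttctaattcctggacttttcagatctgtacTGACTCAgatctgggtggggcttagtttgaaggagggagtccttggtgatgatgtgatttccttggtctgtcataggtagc
CD47, minus strand, chr3:108091032-108091281: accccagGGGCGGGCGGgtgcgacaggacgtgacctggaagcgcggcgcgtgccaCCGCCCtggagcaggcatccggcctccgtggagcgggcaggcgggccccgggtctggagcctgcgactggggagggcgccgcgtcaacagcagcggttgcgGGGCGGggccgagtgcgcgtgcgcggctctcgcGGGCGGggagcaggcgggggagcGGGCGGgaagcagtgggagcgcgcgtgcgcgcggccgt
The CD274 run held 2 overlapping ISRE cores, whose first bases lie at -208 and -202 from the RefSeq start, a GAS motif at -125 and a GC box at -63. Over the 250 bases before the start, 3.07% of 27305 promoters held an ISRE core and 6.78% a GAS motif. The HHLA2 run held 1 AP-1 motif at -139, which 6.60% of promoters held, and no GC box. It belongs to the first of several RefSeq starts of HHLA2. Windows 2 and 3, which lie farther downstream and are not shown, held 0 of the 6 motifs. The CD47 run overlaps no GENCODE 29 exon but lies inside the gene as given there, because 1 transcript starts farther upstream. It held 6 GC boxes and none of the other motifs, and 42.3% of promoters held a GC box. The CRE and NF-kB motifs, held by 1.77% and 1.73% of promoters, were found before none of the 9 matched ligand genes. These are matches of letters in a window and show no binding.

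**Figure D1:**
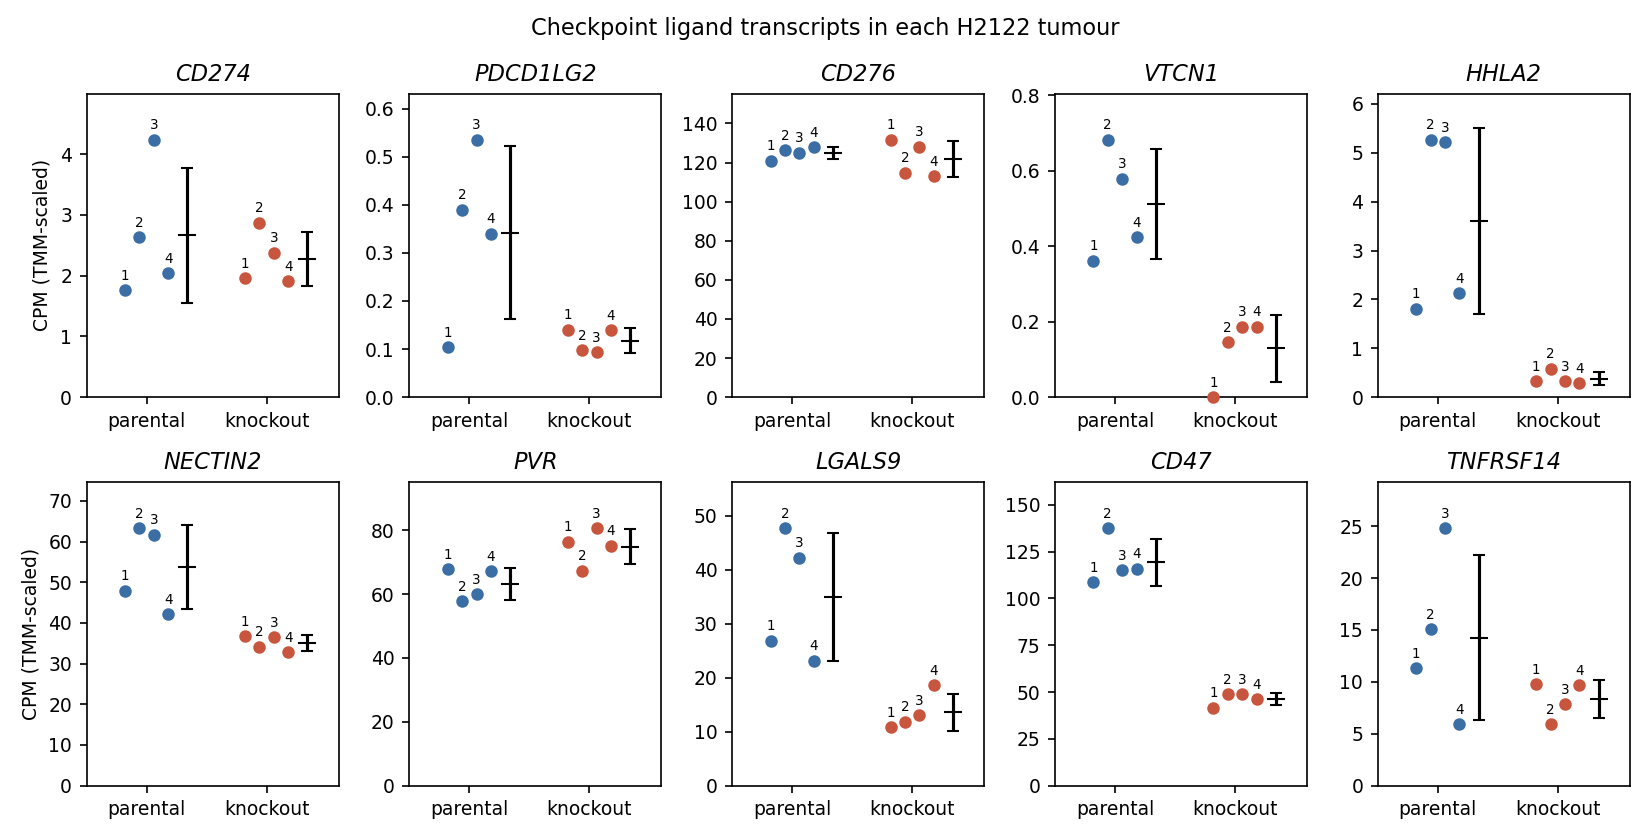
CPM of each of the 10 ligand genes (vertical axes, each from 0 with its own range) in the 4 parental tumours (blue) and the 4 SMARCA4 knockout tumours (red), numbered by replicate, with the mean and SD in black beside each group. For HHLA2, LGALS9, CD47, NECTIN2 and VTCN1 every knockout tumour lies below every parental tumour, while CD274, CD276, PVR, TNFRSF14 and PDCD1LG2 overlap.

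Among the PD-1 ligands, CD274 (ENSG00000120217; coordinates of GENCODE 29 on GRCh38, chromosome 9, 5450503 to 5470566, plus strand) gave few reads in every tumour. It was at 1.76, 2.63, 4.24 and 2.04 CPM in parental replicates 1 to 4 and at 1.96, 2.87, 2.38 and 1.91 CPM in knockout replicates 1 to 4. The groups overlapped, and 1 parental tumour, replicate 3, was above all others. The log2 fold change was -0.23 (SE 0.285, 95% interval -0.85 to 0.40, edgeR adjusted p = 0.595), and the interval leaves room for a fall or a rise of some size. Without parental replicate 3 the value was 0.09, and without parental replicates 2 and 3 it was 0.25 (edgeR adjusted p = 0.495).

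PDCD1LG2 (ENSG00000197646, chromosome 9, 5510570 to 5571254, plus strand) starts beyond the end of CD274 and was barely detected. In parental replicates 1 to 4 its reads numbered 2, 8, 12 and 8, against 3, 2, 2 and 3 in the knockout replicates in the same order. Parental replicate 1 was within the knockout range, and the other parental tumours were above it. Pooled and scaled to library size, parental reads were 2.97 times the knockout reads (exact 95% interval 1.41 to 6.80, counting error only), and the CPM did not pass an exact two-sided permutation test (p = 0.0857, where 0.0286 is the smallest possible with 4 against 4). Without parental replicate 1, the only parental tumour within the knockout range, the exact permutation p was 0.0286, the smallest possible with those tumours. Leaving out that tumour is what ends the overlap, so this p adds no support for a fall. Leaving out parental replicates 2 and 3 gave a log2 ratio of -0.99, against -1.57 with all tumours.

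The inputs that act on CD274 were compared from a list of 12 genes of the interferon gamma and JAK route. Of these, 1 was called higher, none lower and 11 were not called, with a median log2 fold change of 0.04. Over all genes tested 13% were called higher and 14.1% lower, and the counts of the later lists are to be read beside these shares. IFNGR1, the ligand-binding chain of the interferon gamma receptor, rose from 107 ± 12.8 to 147 ± 20.4 CPM (SD, n = 4 each; log2 fold change 0.45, edgeR adjusted p = 0.0136). JAK2, a receptor-bound kinase that lies near CD274 on chromosome 9, had a log2 fold change of 0.20 (edgeR adjusted p = 0.294). IRF1, a transcription factor of this route, had a value of -0.56 (edgeR adjusted p = 0.0811). It was called without parental replicate 1 (-0.69, edgeR adjusted p = 0.0487) and without parental replicate 4 (-0.71, edgeR adjusted p = 0.0256). Without parental replicates 2 and 3 it was at -0.08 (edgeR adjusted p = 0.697).

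PD-L1 protein is held at the surface by CMTM6 and is modified by glycosylation and palmitoylation. Of 13 genes with such roles, 1 was called lower, 1 higher and 11 were not called, with a median log2 fold change of -0.11. CMTM6 had a log2 fold change of -0.06 (edgeR adjusted p = 0.701). ZDHHC3, a palmitoyltransferase, rose from 81.5 ± 2.50 to 108 ± 3.52 CPM (SD, n = 4 each; log2 fold change 0.41, edgeR adjusted p = 0.00147). STUB1, a ubiquitin ligase, had a log2 fold change of -0.35 (edgeR adjusted p = 0.0342), a call that was lost in 6 of the 8 fits without 1 tumour.

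The other B7 family ligands did not behave alike. CD276 (B7-H3, ENSG00000103855, chromosome 15, 73683966 to 73714518, plus strand) was at 121, 126, 125 and 128 CPM in parental and at 132, 115, 128 and 113 CPM in knockout replicates 1 to 4. It was the steadiest of the 10 genes within the parental group, where the highest tumour was 1.06 times the lowest. edgeR gave a log2 fold change of -0.04 (SE 0.0795, 95% interval -0.21 to 0.14, edgeR adjusted p = 0.774).

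HHLA2 (B7-H7, ENSG00000114455, chromosome 3, 108296490 to 108378285, plus strand), which binds the costimulatory receptor TMIGD2 and the inhibitory receptor KIR3DL3, showed the largest fall of the 8 tested ligands. It was at 1.81, 5.26, 5.22 and 2.12 CPM in parental replicates 1 to 4, from 35, 108, 117 and 50 reads. In knockout replicates 1 to 4 it was at 0.327, 0.584, 0.326 and 0.280 CPM, from 7, 12, 7 and 6 reads. The groups did not overlap, and parental replicates 2 and 3 were more than 2 times as high as replicates 1 and 4. The log2 fold change was -3.24 (SE 0.441, 95% interval -4.20 to -2.27, edgeR adjusted p = 0.000277). Leukocyte markers were high in the same parental replicates 2 and 3, at 125 and 104 CPM, and leaving both out gave -2.37 (edgeR adjusted p = 0.000621).

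VTCN1 (B7-H4, ENSG00000134258, chromosome 1, 117143587 to 117210960, minus strand) was a trace transcript. Its reads numbered 7, 14, 13 and 10 in parental and 0, 3, 4 and 4 in knockout replicates 1 to 4, and the count of 0 allows up to 3 reads. Every knockout tumour was below every parental tumour. Pooled and scaled to library size, parental reads were 3.96 times the knockout reads (exact 95% interval 2.01 to 8.49), with an exact permutation p of 0.0286, the smallest possible and not adjusted. Without knockout replicate 1 the exact permutation p was 0.0571, and without parental replicates 2 and 3 the log2 ratio was -1.62, against -1.98 with all tumours, where the exact permutation p cannot go below 0.0667.

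Other B7 family members, butyrophilins and T cell costimulatory ligands were counted from a list of 17 genes, of which 11 passed the filter. Among them 2 were called higher, none lower and 9 were not called, with a median log2 fold change of 0.17. The list is mixed, so this median is not that of costimulatory ligands alone. ICOSLG, the ligand of the T cell receptor ICOS, rose from 1.46 ± 0.344 to 2.89 ± 0.369 CPM (SD, n = 4 each; log2 fold change 0.99, edgeR adjusted p = 0.00662). CD58, which binds CD2 on T cells, had a log2 fold change of 0.36 (edgeR adjusted p = 0.0311), and its call was lost in 6 of the 8 fits without 1 tumour and without parental replicates 2 and 3 (0.27, edgeR adjusted p = 0.161).

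**Figure D2:**
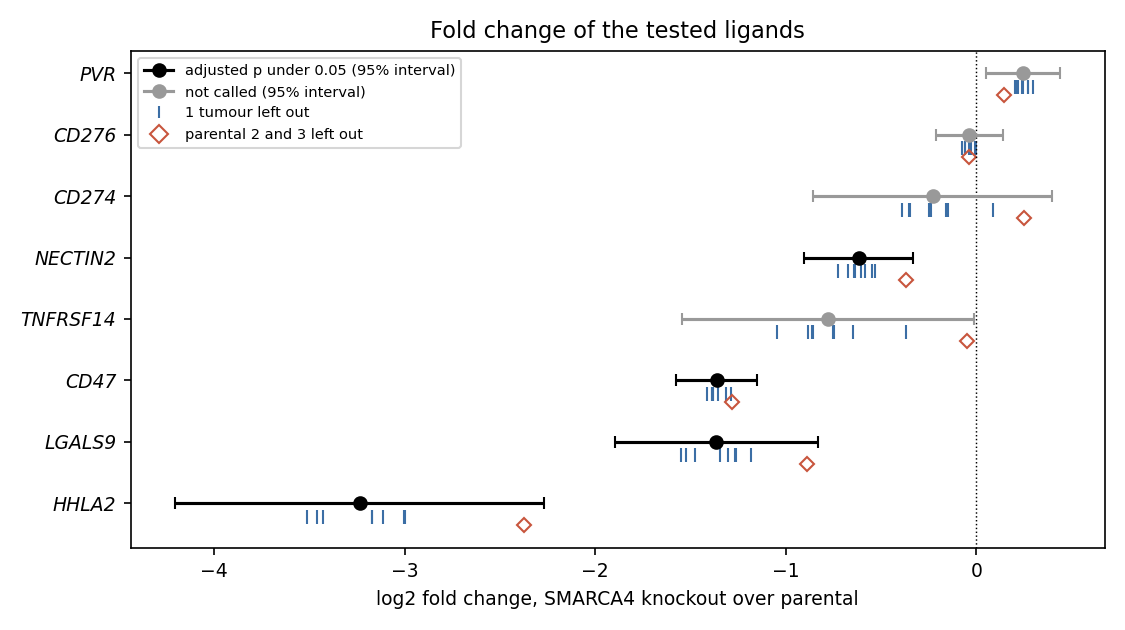
Log2 fold change of the 8 tested ligands (horizontal axis, knockout over parental) with 95% intervals, black where the edgeR adjusted p is under 0.05 and grey otherwise, beside the values without 1 tumour (blue ticks) and without parental replicates 2 and 3 (open diamonds). The 4 called ligands stay below 0 in every fit shown, while the TNFRSF14 diamond is at -0.05 and the CD274 diamond at 0.25.

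Of the ligands of TIGIT and CD226, NECTIN2 fell and PVR was not called. NECTIN2 (CD112, ENSG00000130202, chromosome 19, 44846175 to 44889228, plus strand) was at 48.0, 63.3, 61.7 and 42.2 CPM in parental replicates 1 to 4 and at 36.8, 34.1, 36.4 and 32.8 CPM in knockout replicates 1 to 4. The groups did not overlap, and parental replicates 2 and 3 were again the highest. edgeR gave a log2 fold change of -0.62 (SE 0.129, 95% interval -0.90 to -0.33, edgeR adjusted p = 0.00441). Without parental replicates 2 and 3 it was -0.37 (edgeR adjusted p = 0.0225).

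PVR (CD155, ENSG00000073008, chromosome 19, 44643798 to 44663583, plus strand) lies 183 kb before NECTIN2. It was at 67.7, 57.8, 59.98 and 67.1 CPM in parental replicates 1 to 4 and at 76.4, 67.3, 80.6 and 75.2 CPM in knockout replicates 1 to 4. The ranges met at 1 point, since knockout replicate 2 was just below parental replicate 1. The log2 fold change was 0.25 (SE 0.0891, 95% interval 0.05 to 0.44, edgeR adjusted p = 0.0632), and the exact permutation p was 0.0571. PVR was called without knockout replicate 2 (0.29, edgeR adjusted p = 0.0492) and with upper-quartile scaling (0.28, edgeR adjusted p = 0.0318), and was at 0.14 without parental replicates 2 and 3.

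The reads of PVR over those of NECTIN2 in the same tumour give a ratio in which library scaling cancels. In parental replicates 1 to 4 it was 1.41, 0.914, 0.973 and 1.59, against 2.08, 1.97, 2.21 and 2.29 in the knockout replicates in the same order. Every knockout tumour was above every parental tumour, with a difference of 0.84 on the log2 scale (exact two-sided permutation p = 0.0286, the same after Benjamini-Hochberg adjustment over 3 ratios that were chosen after the values were seen). Without parental replicates 2 and 3 the difference was 0.51, and 2 tumours against 4 cannot pass the test. Between genes a ratio of reads also depends on transcript length, so it is read between tumours only.

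Other nectins and nectin-like molecules, which share the immunoglobulin fold of NECTIN2 and PVR, numbered 6 in a list that also held AFDN. Of the 5 that passed the filter, 2 were called lower, none higher and 3 were not called, with a median of -0.48 for the log2 fold change. Among all genes tested 14.1% were called lower. NECTIN1 fell from 85.2 ± 18.1 to 39.5 ± 5.87 CPM (SD, n = 4 each; log2 fold change -1.11, edgeR adjusted p = 0.000309). NECTIN4 had a log2 fold change of -0.48 (edgeR adjusted p = 0.00148), and both fell. AFDN, which encodes afadin, the linker from nectins to actin, fell by 0.52 on the log2 scale (edgeR adjusted p = 0.00140).

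**Figure D3:**
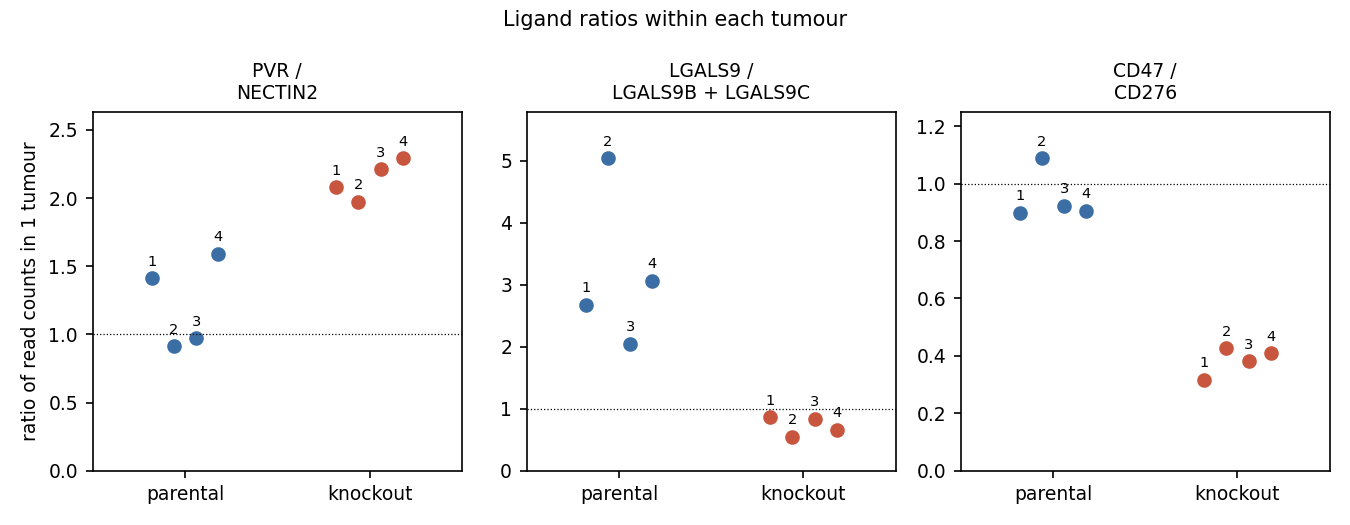
Ratio of read counts of 2 genes within 1 tumour (vertical axes, from 0) for PVR over NECTIN2, LGALS9 over the sum of LGALS9B and LGALS9C, and CD47 over CD276, in parental (blue) and knockout (red) tumours numbered by replicate. The groups do not overlap in any of the 3 ratios, and the knockout ratios of LGALS9 to its copies all lie under 1.

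CD47 (ENSG00000196776, chromosome 3, 108043094 to 108091862, minus strand), the ligand of SIRPA, was an abundant transcript in parental tumours and fell with little spread. It was at 109, 137, 115 and 116 CPM in parental replicates 1 to 4 and at 41.7, 48.9, 48.7 and 46.2 CPM in knockout replicates 1 to 4. The lowest parental tumour was far above the highest knockout tumour, and parental replicates 2 and 3 were not set apart as they were for HHLA2. edgeR gave a log2 fold change of -1.36 (SE 0.0967, 95% interval -1.57 to -1.15, edgeR adjusted p = 3.33e-06), and it was -1.28 without parental replicates 2 and 3 (edgeR adjusted p = 1.17e-05). Against CD276 in the same tumour, the reads of CD47 gave a ratio of 0.899 to 1.09 in the parental group. In the knockout group the ratio was 0.317 to 0.426. The two-sided exact permutation p was 0.0286, the smallest possible, and was unchanged by adjustment over the 3 ratios. This ratio was chosen after the values of both genes were seen, so its p adds no support for the fall of CD47.

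Genes that act with CD47 were counted from a list of 5, of which 4 passed the filter: 1 was called lower, 1 higher and 2 were not called. THBS1, a secreted protein that also binds CD47, rose from 133 ± 22.1 to 260.1 ± 43.3 CPM (SD, n = 4 each; log2 fold change 0.97, edgeR adjusted p = 0.000473). CALR, the chaperone calreticulin that serves as a phagocytosis signal at the cell surface, fell by 0.30 on the log2 scale (edgeR adjusted p = 0.0114). QPCTL, the enzyme that matures the SIRPA-binding end of CD47, was not called. SIRPA rose to 45.4 ± 9.86 CPM from a parental 23.9 ± 5.00 CPM (SD, n = 4 each; log2 fold change 0.92, edgeR adjusted p = 0.00274), and these bulk counts do not show which cells it came from.

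CD47 and HHLA2 lie with 205 kb between them, and the tested genes within 1 Mb of either were listed after their values were seen. IFT57, which encodes a protein of intraflagellar transport and lies between them on the minus strand of chromosome 3 (108160812 to 108222570), dropped to 13.2 ± 0.754 CPM from a parental 27.3 ± 2.85 CPM (SD, n = 4 each; log2 fold change -1.06, edgeR adjusted p = 2.86e-05). BBX, an HMG-box gene on the other side of CD47, fell by 0.43 on the log2 scale (edgeR adjusted p = 0.00980). DUBR, AC069499.1, CIP2A and DZIP3, farther out, were not called, with log2 fold changes of -0.43, -0.05, -0.27 and 0.14. Of the 6 genes within 1 Mb of CD47 that are not ligands, 2 were lower and none higher, where 14.1% of all genes were called lower. Around TNFRSF14 the 29 such genes had 6 lower and 2 higher, around CD276 the 20 had 4 lower and 3 higher, and around VTCN1 the 16 had 4 lower and 4 higher. Around NECTIN2 the 56 had 3 lower and 10 higher, around LGALS9 the 23 had 2 lower and 4 higher, and around CD274 the 17 had 1 lower and 3 higher. Other windows thus held called-lower genes as well, and no difference between windows was tested.

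**Figure D4:**
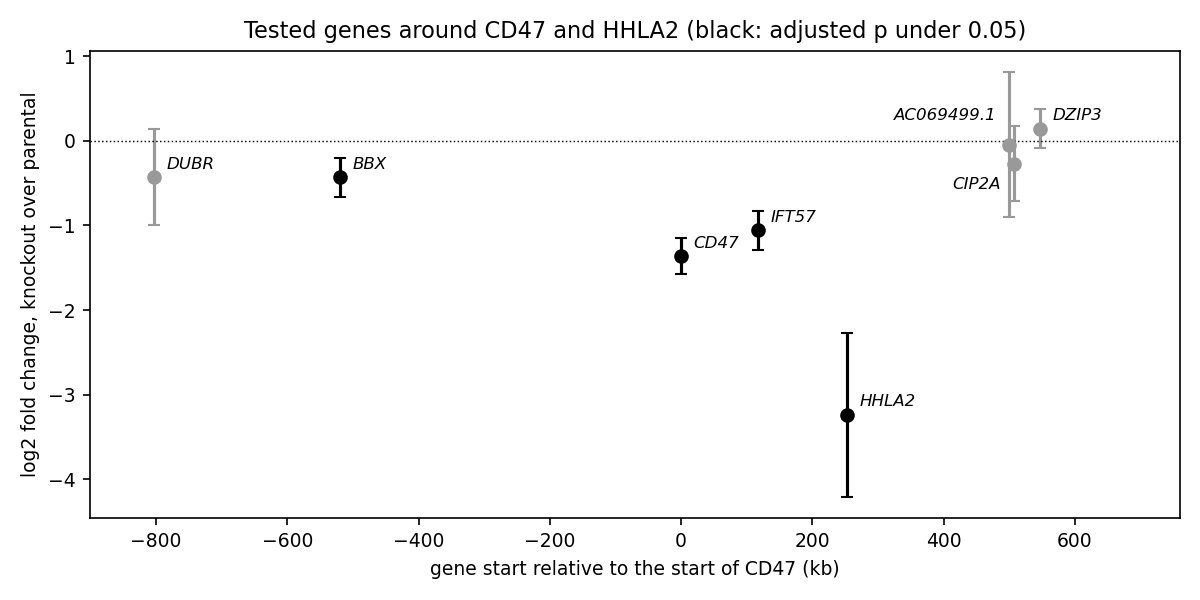
Log2 fold change with its 95% interval (vertical axis, knockout over parental) of the 8 tested genes within 1 Mb of CD47 or HHLA2, by the distance of each gene's lower coordinate from that of CD47 in kb (horizontal axis), black where the edgeR adjusted p is under 0.05. BBX, CD47, IFT57 and HHLA2 follow one another below 0, and the intervals of the 4 other genes include 0.

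LGALS9 (galectin-9, ENSG00000168961, chromosome 17, 27629798 to 27649560, plus strand) was at 26.8, 47.7, 42.2 and 23.1 CPM in parental replicates 1 to 4 and at 10.8, 11.8, 13.1 and 18.6 CPM in knockout replicates 1 to 4. The groups did not overlap, and parental replicates 2 and 3 were the highest. The log2 fold change was -1.36 (SE 0.242, 95% interval -1.90 to -0.83, edgeR adjusted p = 0.00161), and -0.89 without parental replicates 2 and 3 (edgeR adjusted p = 0.00663). LGALS9 has near-identical copies, LGALS9B and LGALS9C, elsewhere on chromosome 17, and the counting may have split reads among them.

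LGALS9B averaged 9.04 ± 4.37 CPM in the parental and 13.6 ± 4.50 CPM in the knockout group (SD, n = 4 each), with a log2 fold change of 0.59 (edgeR adjusted p = 0.189). LGALS9C was at 2.89 ± 1.61 and 5.92 ± 2.63 CPM (SD, n = 4 each), with a log2 fold change of 1.04 (edgeR adjusted p = 0.0818). Without parental replicate 3, in which both were highest among parental tumours, the values were 0.98 for LGALS9B (edgeR adjusted p = 0.0132) and 1.47 for LGALS9C (edgeR adjusted p = 0.0197). With all 3 genes summed to 1 feature the log2 fold change was -0.50 and the call was lost (edgeR adjusted p = 0.166). The reads of LGALS9 over those of its copies together were 2.68, 5.04, 2.05 and 3.06 in parental replicates 1 to 4. In knockout replicates 1 to 4 they were 0.859, 0.547, 0.839 and 0.658, so the groups were apart. The exact two-sided permutation p was 0.0286, the smallest possible, and was unchanged by adjustment over the 3 ratios. This ratio too was chosen after the values were seen.

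Other inhibitory ligands and enzymes were counted from a list of 12, of which 10 passed the filter. Among these 1 was called lower, 1 higher and 8 were not called, with a median log2 fold change of 0.02. CD24, a surface protein that binds Siglec-10 on macrophages, fell from 454 ± 50.6 to 269 ± 41.0 CPM (SD, n = 4 each; log2 fold change -0.76, edgeR adjusted p = 0.000959). TDO2, a tryptophan-degrading enzyme, had a log2 fold change of 0.70 (edgeR adjusted p = 0.0427), and its call was lost in 7 of the 8 fits without 1 tumour and without parental replicates 2 and 3 (0.46, edgeR adjusted p = 0.198).

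TNFRSF14 (HVEM, ENSG00000157873, chromosome 1, 2555639 to 2565382, plus strand) had the highest coefficient of variation of the 10 ligands among parental tumours, at 55.8%. It was at 11.3, 15.1, 24.8 and 5.90 CPM in parental replicates 1 to 4 and at 9.80, 5.94, 7.83 and 9.69 CPM in knockout replicates 1 to 4. The knockout values lay inside the parental range, of which replicate 3 made the top and replicate 4 the bottom. edgeR gave a log2 fold change of -0.78 (SE 0.349, 95% interval -1.54 to -0.01, edgeR adjusted p = 0.126). Without parental replicate 4 it was -1.05 (edgeR adjusted p = 0.0140), a call, and without parental replicates 2 and 3 it was -0.05 (edgeR adjusted p = 0.913). The antisense gene TNFRSF14-AS1 overlaps 13.4% of its exon bases, and without a stated strand setting reads of both cannot be told apart. Exons of neighbouring genes overlap smaller shares of LGALS9 (5.15%, AC015688.4), PVR (3.44%, CEACAM19) and NECTIN2 (3.42%, AC011481.2).

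A list drawn up around HVEM held TNFSF13B, LTA, LTB, TRAF2 and TRAF3, not all of which are partners of HVEM itself. LTBR was also planned for it but was not analysed. Of the 5 genes, 4 passed the filter: 1 was called higher, none lower and 3 were not called. TRAF2, an adaptor of TNF receptor family signalling, rose from 18.6 ± 1.23 to 24.8 ± 1.95 CPM (SD, n = 4 each; log2 fold change 0.41, edgeR adjusted p = 0.00808). Receptors and partners of the ligands that are typical of leukocytes were counted from 14 genes, of which 6 passed the filter, and SIRPA alone was called. The 8 untested receptors gave few reads, and both groups overlapped for each. TIGIT gave 8, 54, 30 and 6 reads in parental replicates 1 to 4 against 2 to 13 with the knockout, and PDCD1, the gene of PD-1, gave 2, 9, 17 and 0 against 0 to 3, so parental replicates 2 and 3 held most reads of both. TMIGD2, a receptor of HHLA2, gave 3 to 9 reads in parental and 6 to 12 in knockout libraries. CD80, KIR3DL3, PVRIG, BTLA and CD160 gave at most 6 reads over the 4 libraries of a group.

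Levels were compared between genes per kilobase of exon (RPKM), from exon lengths of GENCODE 29. The length is the union of exons over all transcripts of a gene, such as 5714 bases for LGALS9, 6219 for TNFRSF14 and 8225 for CD47. Exons that are not used in these tumours lower the value, so the order and the overlaps between genes hold for this choice of length only. In parental tumours CD276 was the highest ligand at 22.6 RPKM, above every value of PVR, and was followed by PVR at 17.9, CD47 at 14.5 and NECTIN2 at 14.4, whose ranges overlapped from one to the next. LGALS9 followed at 6.12, TNFRSF14 at 2.29, HHLA2 at 0.994, CD274 at 0.649, VTCN1 at 0.169 and PDCD1LG2 at 0.145 RPKM. TNFRSF14 and HHLA2, HHLA2 and CD274, and VTCN1 and PDCD1LG2 overlapped in these tumours. In knockout tumours CD276 at 21.99 and PVR at 21.3 RPKM overlapped at the top, ahead of NECTIN2 at 9.35 and CD47 at 5.64 RPKM, which did not overlap each other. HHLA2 at 0.105 RPKM was below every CD274 value, which averaged 0.555 RPKM.

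**Figure D5:**
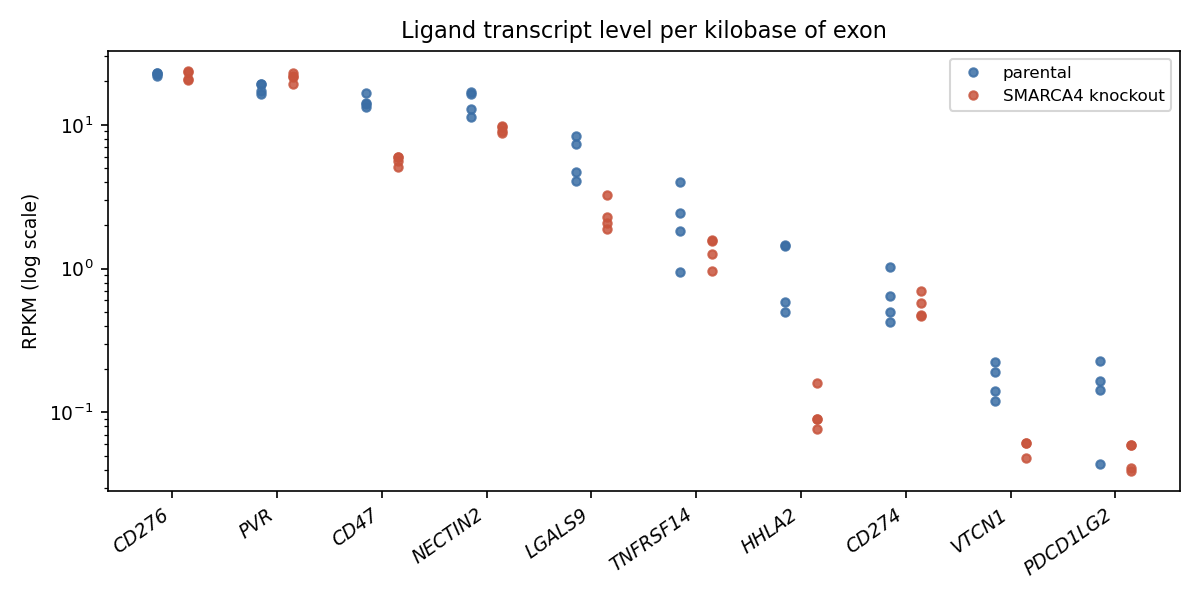
Level of each ligand in RPKM (vertical axis, log scale), with 1 point per tumour in parental (blue) and knockout (red) tumours, in the order of the parental mean. Parental means run from 22.6 RPKM for CD276 to 0.145 RPKM for PDCD1LG2, and knockout replicate 1 is not drawn for VTCN1 because its count was 0.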

How the data were processed

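RNA was measured in 4 parental and 4 SMARCA4 KO tumours, with groups and replicate numbers from the sample titles. The authors deposited raw read counts per gene symbol, 1 file per tumour. The submitters' processing notes name TopHat2 2.1.1, HTSeq 0.11.0 and hg38, and the annotation, counting options, strandedness and any separation of mouse reads are not given in the sources used here. The 5 summary lines of each file, 14.8% to 20.9% of its reads, were left out of library sizes.

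Genes were filtered with filterByExpr (minimum count 10, minimum total 15), scaled by TMM and tested with the quasi-likelihood F-test of edgeR 4.0.16 in R 4.3.3, without covariates. P-values were adjusted over all genes by the Benjamini-Hochberg method, with a threshold of 0.05. The SE is the log2 fold change divided by the square root of F. Members outside the filter, and ratios, were compared by exact two-sided permutation of 4 against 4 tumours. Intervals of pooled counts cover counting error only, since reads are not independent molecules. RPKM was computed from the deposited counts with the length of the union of all exons of a gene in GENCODE 29. The test was checked on simulated data.

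The members, lists and tests were chosen with earlier results of these data known. Named genes are the 10 members, SMARCA4, LGALS9B and LGALS9C, up to 4 called genes per list whose mean log2 CPM reached 1, CMTM6, JAK2 and IRF1, and the 3 genes most like CD274 and each called member. One gene that the rule names is not reported here. Others were chosen after their values were seen. Alternatives were DESeq2 1.42.0, voom of limma 3.58.1, other scalings and filters, a replicate block, LGALS9 summed with its copies and leaving out tumours. Any 2 libraries differed by more than sampling noise (chi-square per degree of freedom at least 8.21). The edgeR p-values weigh a group difference against the spread between these tumours, and the permutation p-values against relabelled groups. Neither covers other cell lines or other knockouts.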

Additional observations from a re-analysis of the deposited data

Results flagged for a closer look

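In the knockout group HHLA2 was at 0.584 CPM in replicate 2, from 12 reads, and the remaining 3 tumours of that group gave 0.280 to 0.327 CPM, from 6 or 7 reads. This was the only tumour that stood apart by its gap to the others among 20 sets of 4 values, 1 for each ligand in each group, and chance gives about 1 in 20. All 4 knockout values were below the lowest parental value of 1.81 CPM. Without knockout replicate 2 the log2 fold change of HHLA2 was -3.51 (edgeR adjusted p = 0.000815).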

How the results depend on the processing

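HHLA2, NECTIN2, LGALS9 and CD47 were called lower in all 18 whole-table alternatives, the 8 fits without 1 tumour included, and 4 to 6 ligands were called in each. Without 1 tumour their log2 fold changes ranged from -3.51 to -3.00, -0.72 to -0.53, -1.55 to -1.18 and -1.41 to -1.29. LGALS9 lost its call only when summed with LGALS9B and LGALS9C (-0.50). Over all genes 3501 to 4946 were called, against 4385. CD274 turned positive without parental replicate 3 (range without 1 tumour -0.39 to 0.0851) and without parental replicates 2 and 3 (0.25). CD276 ranged from -0.0732 to 0.00039. PVR was called with upper-quartile scaling (0.28) and with the 10 most abundant genes left out of library sizes (0.26), and ranged from 0.20 to 0.29 without 1 tumour. TNFRSF14 was called with no filter (-0.80), as was VTCN1 (-1.96, edgeR adjusted p = 0.0141). Without 1 tumour TNFRSF14 ranged from -1.05 to -0.37. The log2 ratio of VTCN1 ranged from -2.21 to -1.56 without 1 tumour, was -1.62 without parental replicates 2 and 3, and that of PDCD1LG2 ranged from -1.85 to -1.27. CMTM6 ranged from -0.128 to 0.0257. The causes of these changes were not tested. Leaving out both parental replicates was chosen after seeing the data. VTCN1 and PDCD1LG2 gave no value with DESeq2, limma-voom, the stricter filter or the replicate block, and their 10 to 44 reads a group limit what can be said.

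With the replicate number as a block, 3871 genes and the same 4 ligands were called (CD47 -1.36, HHLA2 -3.16, NECTIN2 -0.60, LGALS9 -1.33). Deviations of same-numbered tumours correlated at -0.03, 0.01, -0.30 and 0.11, and 0 of 8 tumours matched its own number best.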

Other observations

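The genes whose log2 CPM followed a ligand most closely over the 8 tumours were searched among 13048 other genes. The values describe these tumours, in which libraries and the group difference are shared, and carry no test. For CD274 the nearest were NCR3LG1, AL109613.1 and LPP-AS2 (Pearson r of 0.950, 0.944 and 0.943), none of them called. NCR3LG1 encodes B7-H6, a ligand of natural killer cells.

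For HHLA2 the nearest were TCN2, INAVA and CTSS (r of 0.994, 0.989 and 0.988), and for NECTIN2 they were FAM234A, ARSD and PML (0.995, 0.987 and 0.985). CYB561, CLIC5 and DDX24 were nearest to LGALS9 (0.993, 0.979 and 0.978). MACC1, UGT1A6 and SPATA13 were nearest to CD47 (0.997, 0.995 and 0.994), with log2 fold changes of -2.07, -2.49 and -0.43.

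Spread among parental tumours differed between ligands. The coefficient of variation of the CPM was 55.8% for TNFRSF14, 52.6% for HHLA2, 41.6% for CD274 and 33.9% for LGALS9, against 10.5% for CD47, 7.93% for PVR and 2.41% for CD276. Among knockout tumours it was 21.9% for TNFRSF14, 36.5% for HHLA2, 19.6% for CD274 and 25.6% for LGALS9. There it was 7.24% for CD47, 7.43% for PVR and 7.66% for CD276. For NECTIN2 it was 19.2% among parental and 5.4% among knockout tumours, and for PDCD1LG2 52.4% and 21.96%. For VTCN1 it was 28.5% among parental and 68.3% among knockout tumours. The coefficient was thus higher in the knockout group for CD276 and VTCN1, and lower for the other ligands. Knockout libraries held only 0 to 4 reads of VTCN1, 6 to 12 of HHLA2 and 2 or 3 of PDCD1LG2. For such counts counting error makes up much of the coefficient, unlike for the abundant ligands. Whether the groups differ in this spread was not tested.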
